A study of Mus musculus with 9 samples.

Results

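The genes of the proteasome, the protease complex that degrades proteins tagged with ubiquitin, were followed through the mouse kidney after ischemia. Members were the protein-coding genes whose symbol in GENCODE mouse release M21 is Psm, then a letter from a to g, then a digit. This rule used symbols only and found 50 of the 29678 genes in the count tables, of which 49 were among the 17967 genes with enough counts to test. Psmc3ip, taken in by its name, encodes a cofactor of meiotic recombination and is not a proteasome gene. Psmb11, the catalytic subunit of the thymus proteasome, did not pass the filter on low counts and lay between 0 and 0.0932 CPM (counts of a gene relative to its library's size) in the 8 libraries used.

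RNA was sequenced from kidney tissue of 3 groups at 24 h after reperfusion, from poly(A)-selected libraries. Sham was sham-operated, bIRI had bilateral ischemia-reperfusion injury, and BHBNa_bIRI had that injury after pretreatment with beta-hydroxybutyrate sodium, the salt of a ketone body that tissues burn during fasting. No genotype, strain, sex, age, dose or number of mice is stated in the labels, and nothing says that each library is a separate animal, so p-values here measure only the spread between libraries. In every gene, the values of bIRI replicate 2 were the rounded-down mean of bIRI replicates 1 and 3, so that this library was left out and bIRI had 2 libraries. The 8 libraries held 33477985 to 45909063 counts. Summed CPM of 7 proximal tubule markers, which identify the main cell type of kidney cortex, was 11057 to 12451 in Sham, 1195 to 1364 in bIRI and 1528 to 1698 in BHBNa_bIRI. Summed over 4 markers of injured tubule, it was 13.5 to 20.3, 1588 to 5108 and 2849 to 3458 CPM. CPM values here use library sizes with TMM factors (trimmed mean of M-values), and they are listed in the order Sham replicates 1, 2 and 3, bIRI replicates 1 and 3, and BHBNa_bIRI replicates 1, 2 and 3.

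The proteasome is built around a barrel, the 20S core, made of rings of alpha and beta subunits, and 3 of the beta subunits cut peptide bonds. A 19S cap on the barrel binds ubiquitin chains, removes them, unfolds the substrate with a ring of ATPases and feeds it into the core. Dedicated chaperones assemble core and cap, and other activators can sit on the barrel in place of the cap. In immune cells, and in other cells exposed to interferon, inducible catalytic subunits replace the constitutive ones and form the immunoproteasome, which favours peptides that fit MHC class I molecules. When proteasome capacity falls short, the transcription factor NRF1, encoded by Nfe2l1, raises the constitutive genes together. Kidney tubule cells take up filtered protein and also depend on the proteasome to clear proteins damaged by injury.

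In bIRI against Sham, few proteasome genes differed beyond the spread between libraries. By edgeR's quasi-likelihood test, at a Benjamini-Hochberg adjusted p of 0.05 over all genes tested, 1 of 49 members rose and 2 fell, beside 35.1% of all genes called (18.9% higher and 16.2% lower). The gene that rose was Psmc6, and those that fell were Psmb9 and Psme4. The median log2 fold change of the members was -0.04, beside 0.08 over all genes tested. Libraries of these groups did not overlap for 4 members that were higher and 5 that were lower, beside 28.7% and 27.2% of all genes. With upper-quartile scaling, which moved the median of all genes to 0.17, 2 members were higher and 1 lower, and the members' median was 0.039.

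In BHBNa_bIRI against bIRI, 10 of 49 members rose and 2 fell, beside 13.5% of all genes called, of which 4.88% were higher and 8.65% lower. The 10 were the constitutive catalytic genes Psmb5 and Psmb6, the 3 inducible catalytic genes Psmb8, Psmb9 and Psmb10, the core chaperone genes Psmg1, Psmg3 and Psmg4, and the activator genes Psme1 and Psme2. Those that fell were Psmd1 and Psme4. The median log2 fold change was 0.65 for the members and -0.05 for all genes, and 40 of the 49 members had a positive value. Libraries did not overlap between these groups for 24 members that were higher and 4 that were lower, beside 22.2% and 23.8% of all genes. All 12 calls also ended with offsets for transcript length and GC content, which moved the members' median to 0.29, in a fit of the compared groups only, and with the replicate number as a block. These calls rest on 2 bIRI libraries. Without Sham replicate 1, Sham replicate 2, BHBNa_bIRI replicate 1 or BHBNa_bIRI replicate 3, edgeR called 0 members and at most 1 gene in all. In those fits 24, 22, 17 and 20 members had an unadjusted p under 0.05. For counts at an unadjusted p, here and below, the share of all genes is not given, so they do not set the members apart. Without Sham replicate 3 or BHBNa_bIRI replicate 2, 4 and 5 members were higher and 1 lower in each fit. Of all genes, 1.83% and 2.65% were higher and 3.91% and 3.83% lower in those fits. The calls of Psmb5, Psmb9, Psmg1, Psmg3, Psme1 and Psme4 were kept in 1 of the 8 fits that left out 1 library, the one without bIRI replicate 1, that of Psmb6 in 2, and those of Psmb8, Psmb10, Psmd1, Psmg4 and Psme2 in 4. DESeq2 on the 8 libraries called 19 of 50 members higher and 2 lower, beside 6.36% and 8.14% of all genes. It was run without the filter on low counts, so its shares, here and below, are of 29045 genes. They do not have the same base as the edgeR shares, and the 2 kinds cannot be compared directly.

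Against Sham, BHBNa_bIRI had 17 of 49 members higher and 3 lower, beside 43.6% of all genes called, 21.3% higher and 22.2% lower. The median log2 fold change was 0.37, beside 0.04 over all genes. Libraries did not overlap for 33 members that were higher and for 6 that were lower, beside 32.6% and 32.2% of all genes. This comparison shares its BHBNa_bIRI libraries with the preceding one and its Sham libraries with the first, so the 3 sets of values are given side by side and not as separate evidence. Called in each of the 8 fits that left out 1 library were Psmb5, Psmb6, Psmb8, Psmb10, Psmd4, Psmg3, Psmg4 and Psme2, all higher, and Psmd1 and Psme4, both lower, and each of the other 10 calls was lost in at least 1 of those fits. Without Sham replicate 1 or Sham replicate 2, the count of members higher was 8 and 10, beside 13.8% and 13.9% of all genes.

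**Figure D1:**
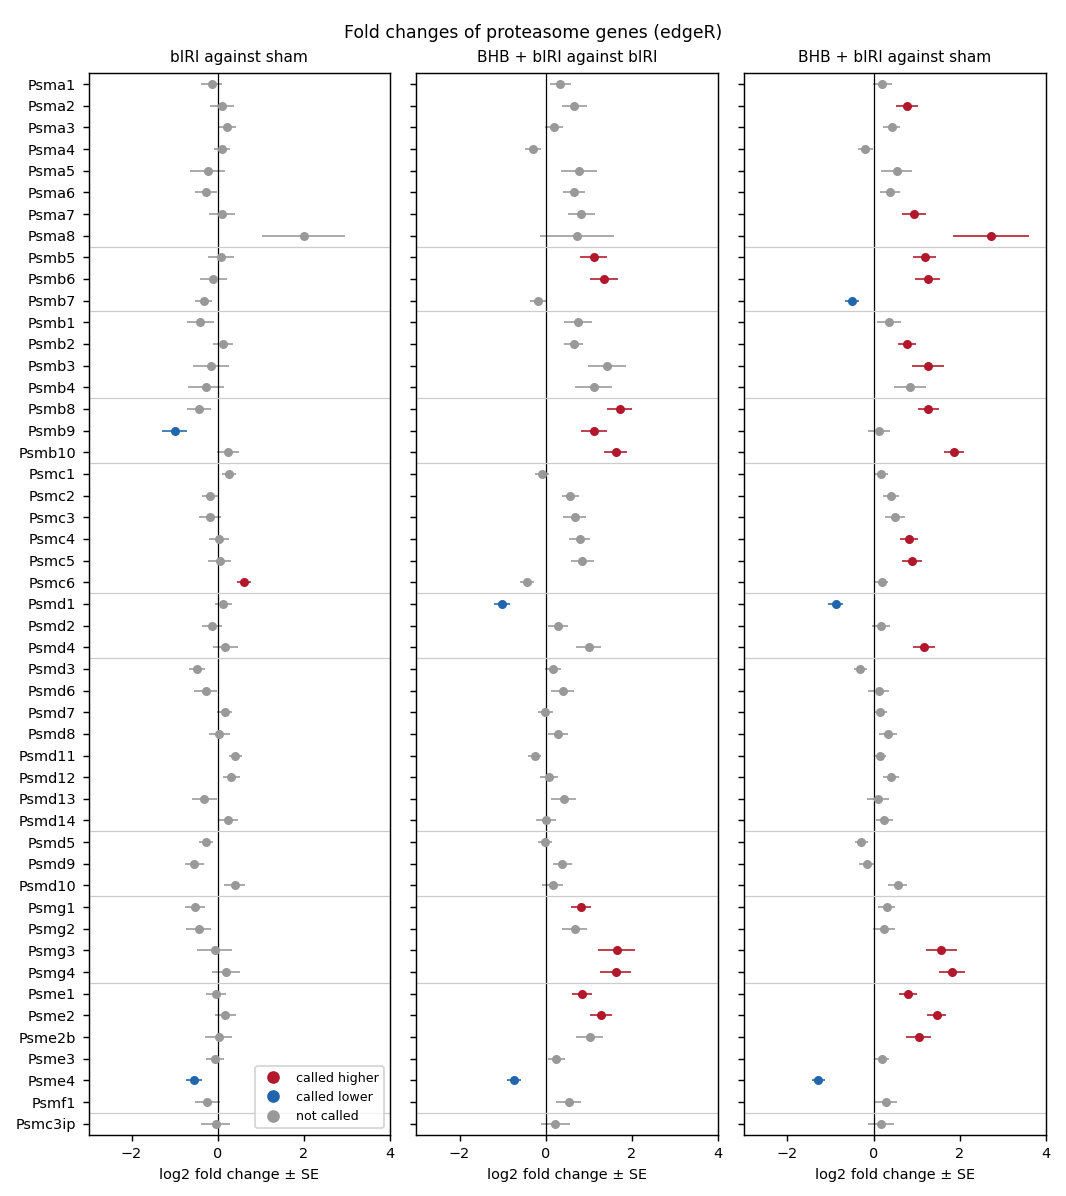
Log2 fold changes of the 49 members tested (x axis, points, with bars for ± 1 SE) in the 3 comparisons, 1 row per gene, grouped by role from the alpha ring at the top, where BHB + bIRI stands for BHBNa_bIRI. Red and blue points passed an edgeR adjusted p of 0.05, with 1 red and 2 blue for bIRI against Sham, 10 and 2 for BHBNa_bIRI against bIRI, and 17 and 3 for BHBNa_bIRI against Sham.

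The 2 bIRI libraries differed in nearly all members. Replicate 3 lay below replicate 1 in 45 of 49 members (91.8%), beside 49% of all genes tested, and it was the lowest of the 8 libraries in 33 members (67.3%, beside 24% of all genes). The median log2 level of the 31 constitutive 20S and 19S subunits, relative to the Sham mean, stood at 0.36 in bIRI replicate 1 and at -0.46 in the other. It was 0.51, 0.26 and 0.34 in the BHBNa_bIRI libraries. All genes tested had medians of 0.02 and 0.03 in bIRI replicates 1 and 3, with no gap between them. Markers of tubule segments differed between the same 2 libraries: injured tubule markers summed to 5108 and 1588 CPM in bIRI replicates 1 and 3, and 4 markers of thick ascending limb and distal tubule to 1684 and 4583 CPM. The latter were at 2153 to 3685 CPM in Sham and 356 to 923 CPM in BHBNa_bIRI, where 3 of 4 were called lower against bIRI. The part of these cells in the proteasome values was not tested. The direction of the constitutive genes in bIRI against Sham therefore turned with the bIRI library kept. Without bIRI replicate 1, 27 members were lower and none higher, with 46.3% of all genes called. Without bIRI replicate 3, 7 were higher and 1 lower, with 36.4% of all genes called. In BHBNa_bIRI against bIRI the same fits gave 35 higher and 2 lower (42.8% of all genes called), and 4 higher and 1 lower (4.27%).

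**Figure D2:**
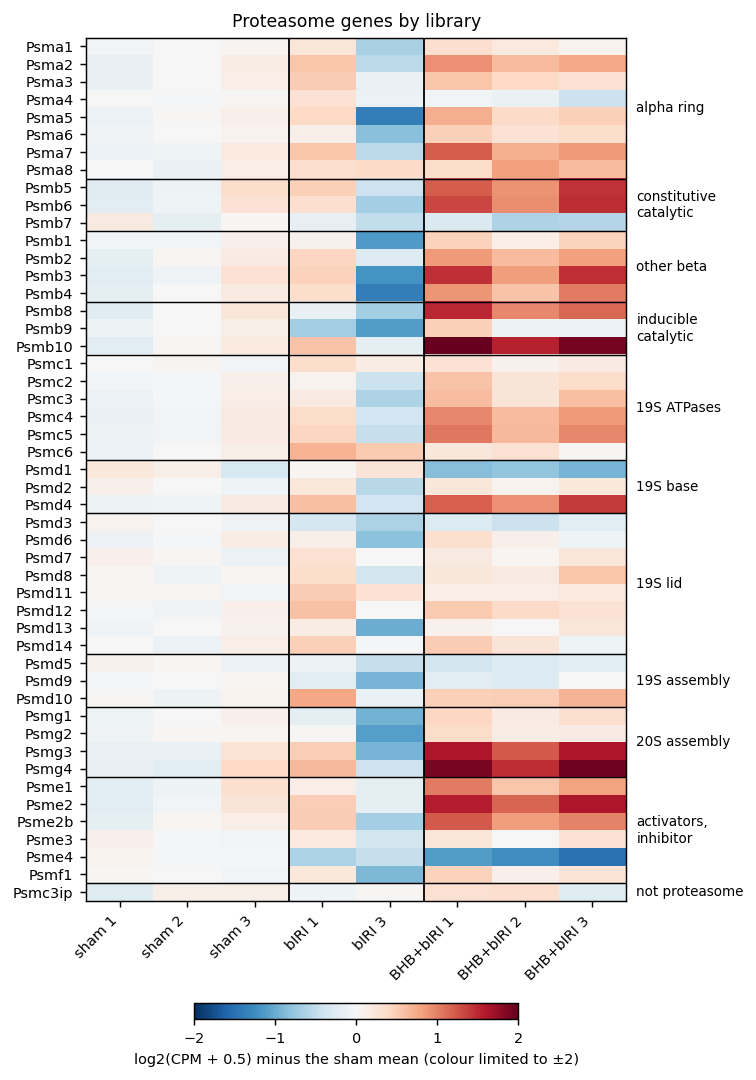
Level of each of the 49 members tested (rows, grouped by role) in each of the 8 libraries (columns), as log2(CPM + 0.5) minus the Sham mean, with red above and blue below it and the colour limited to 2 log2 units. The bIRI replicate 3 column is mostly blue, the bIRI replicate 1 column mostly light red, and Psmb10, Psmg3 and Psmg4 are deep red in the BHBNa_bIRI columns, where Psmd1 and Psme4 are blue.

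Among the constitutive catalytic subunits, Psmb5 and Psmb6 stood higher in BHBNa_bIRI than in the other groups, and Psmb7 did not. Psmb5 encodes the subunit with chymotrypsin-like activity, the target of bortezomib (ENSMUSG00000022193, GRCm38 chromosome 14, 54614119 to 54618022). Its levels were 123, 135 and 185 CPM in Sham, 202 and 109 CPM in bIRI, and 338, 271 and 399 CPM in BHBNa_bIRI. Every BHBNa_bIRI library lay above every other library, while the bIRI libraries fell on either side of the Sham libraries. Psmb5 rose by 1.11 on the log2 scale against bIRI (SE 0.31, edgeR adjusted p = 0.0463) and by 1.18 against Sham (SE 0.27, adjusted p = 0.00724). In bIRI against Sham its log2 fold change was 0.07 (SE 0.30, adjusted p = 0.875). Against bIRI the value was 0.73 without bIRI replicate 3 (adjusted p = 0.119), 1.68 without bIRI replicate 1, and 0.23 with length and GC offsets (adjusted p = 0.363).

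Psmb6 encodes the subunit with caspase-like activity (ENSMUSG00000018286, chromosome 11, 70525367 to 70527858). It was at 112, 122 and 158 CPM in Sham, 164 and 80.5 CPM in bIRI, and 327, 247 and 361 CPM in BHBNa_bIRI, and again every BHBNa_bIRI library was above all others. Against bIRI it rose 2.55-fold, by 1.35 on the log2 scale (SE 0.32, edgeR adjusted p = 0.0345), and against Sham by 1.25 (SE 0.28, adjusted p = 0.00633). Psmb7, the gene of the trypsin-like subunit (ENSMUSG00000026750, chromosome 2, 38588036 to 38644087), went the other way. Its values were 79.6, 61.0 and 71.5 CPM in Sham, 62.7 and 50.1 CPM in bIRI, and 57.3, 45.9 and 46.8 CPM in BHBNa_bIRI. The Sham and BHBNa_bIRI libraries of Psmb7 did not overlap, and bIRI overlapped with both. Psmb7 fell by 0.50 on the log2 scale against Sham (SE 0.17, edgeR adjusted p = 0.0398), a call lost with upper-quartile factors and without Sham replicate 1 (adjusted p = 0.145), Sham replicate 3 (adjusted p = 0.089), BHBNa_bIRI replicate 2 (0.124) or BHBNa_bIRI replicate 3 (0.116). Psmb7 shares 405 exonic bases with Nek6 on the opposite strand, and Nek6 was at 32.6 to 35.7 CPM in Sham, 102 and 33.5 CPM in bIRI, and 77.2 to 94.1 CPM in BHBNa_bIRI. A processed pseudogene, Gm3375, matches 98.9% of 796 aligned bases of Psmb5, and was at 0.567 to 8.79 CPM.

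All 3 inducible catalytic genes were higher in BHBNa_bIRI than in bIRI, from low levels. Psmb8 encodes LMP7, the inducible counterpart of Psmb5 (ENSMUSG00000024338, chromosome 17, 34197721 to 34201454). Its levels were 5.32, 6.39 and 7.62 CPM in Sham, 5.69 and 3.80 CPM in bIRI, and 19.1, 12.9 and 14.8 CPM in BHBNa_bIRI. The BHBNa_bIRI libraries stood clear of all others, and the bIRI libraries overlapped with Sham. Psmb8 rose 3.29-fold against bIRI, by 1.72 on the log2 scale (SE 0.29, edgeR adjusted p = 0.0275), and by 1.28 against Sham (SE 0.25, adjusted p = 0.00302).

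Psmb10 encodes MECL-1, the counterpart of Psmb7 (ENSMUSG00000031897, chromosome 8, 105935735 to 105938444), and was the most abundant of the 3. It was at 14.2, 16.7 and 18.9 CPM in Sham, 24.6 and 14.3 CPM in bIRI, and 68.1, 48.8 and 63.5 CPM in BHBNa_bIRI. Sham and bIRI overlapped and BHBNa_bIRI did not overlap with either. Psmb10 rose 3.09-fold against bIRI, by 1.63 on the log2 scale (SE 0.27, edgeR adjusted p = 0.0275), and 3.63-fold against Sham, by 1.86 (SE 0.23, adjusted p = 0.000319).

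Psmb9 encodes LMP2, the counterpart of Psmb6 (ENSMUSG00000096727, chromosome 17, 34181987 to 34187764), and followed another course. Its values were 5.67, 6.05 and 6.64 CPM in Sham, 3.57 and 2.55 CPM in bIRI, and 8.65, 5.68 and 5.60 CPM in BHBNa_bIRI. The bIRI libraries were the lowest, while BHBNa_bIRI spanned the Sham range. Psmb9 fell by 1.00 on the log2 scale in bIRI against Sham (SE 0.30, edgeR adjusted p = 0.0275) and rose by 1.12 in BHBNa_bIRI against bIRI (SE 0.30, adjusted p = 0.0410). BHBNa_bIRI against Sham gave 0.12 (SE 0.26, adjusted p = 0.732). The fall was not called without Sham replicate 1 (adjusted p = 0.0589), Sham replicate 2 (0.0677), Sham replicate 3 (0.0764) or bIRI replicate 3 (0.0778). The rise was not called without any 1 library but bIRI replicate 1 (adjusted p = 0.0591 to 0.129). Psmb9 shares 212 exonic bases with its neighbour Tap1, which encodes a subunit of the peptide transporter of antigen presentation and is read from the opposite strand. The strand setting of the read counting is not given in the sources used here.

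**Figure D3:**
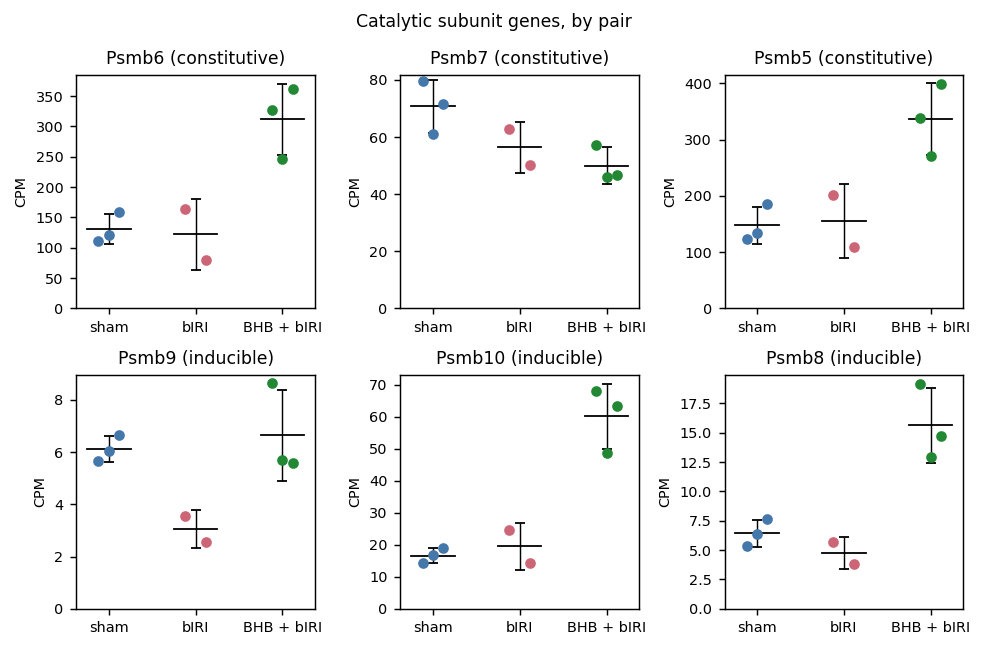
Levels in CPM (y axes, each from 0) of the 3 constitutive catalytic genes (top row) and, below each, its inducible counterpart, by group, with BHB + bIRI for BHBNa_bIRI. Points are libraries, and bars show the group mean ± SD with n = 3 in Sham and BHBNa_bIRI and n = 2 in bIRI. BHBNa_bIRI points lie above all others for Psmb5, Psmb6, Psmb8 and Psmb10 (48.8 to 68.1 CPM), not for Psmb7 or Psmb9.

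The stretches before the starts of these genes are shown because catalytic genes of both kinds moved in BHBNa_bIRI, and stress and interferon factors are known to bind before the starts of such genes. They were taken from the RefSeq promoter table (build GRCm38.p6), in which 42 of the 50 members had an entry, not Psmb7. Capitals mark letters that match a motif: TGACNNNGC, the core of the antioxidant response element that NRF1 and NRF2 bind, in Psmb5 and Psmb6, TTCNNNGAA, the core of the gamma-activated site of interferon-responsive genes, in Psmb8, and CCAAT, the NF-Y box, on the other strand in Psmb9. Those of Psmb5 (chr14:54618023-54618122, minus strand), Psmb6 (chr11:70525257-70525356, plus strand) and Psmb10 (chr8:105938445-105938544, minus strand) are 100 bases in no annotated exon, nearest the start. Those of Psmb8 (chr17:34198087-34198116, plus strand) and Psmb9 (chr17:34187331-34187360, minus strand) are 30 bases around the match, since they lie within an annotated exon.
Psmb5: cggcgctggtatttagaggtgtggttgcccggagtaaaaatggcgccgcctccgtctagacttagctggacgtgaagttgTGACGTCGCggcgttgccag
Psmb6: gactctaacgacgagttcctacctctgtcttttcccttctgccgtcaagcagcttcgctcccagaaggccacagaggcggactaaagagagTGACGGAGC
Psmb8: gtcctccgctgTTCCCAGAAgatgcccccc
Psmb9: cctgcaccgcgcgcagccgctgATTGGaaa
Psmb10: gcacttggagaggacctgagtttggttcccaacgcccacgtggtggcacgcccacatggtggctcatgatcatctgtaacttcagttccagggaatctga

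Over the 250 bases before each start, both strands searched, TGACNNNGC was found in 5 of 42 members (11.9%), beside 10.2% of all 32851 promoters of the same length and 13.9% of the 12454 genes tested that have one. The 5 were Psmb5, Psmb6, Psmc6, Psmd9 and Psmd12. TTCNNNGAA was found in 2 members, Psmb8 and Psmg1 (4.76%, beside 7.02% and 7.44%). The core of the interferon-stimulated response element was found in Psmb3, Psmd4 and Psmd9 (7.14%, beside 2.98% and 3.32%), and CCAAT in 15 members (35.7%, beside 33.8% and 39.4%). Psmb10, with the largest rise of the catalytic genes against Sham, held none of the 4 in this window. These matches describe letters only.

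Levels of different genes can be set side by side per length of transcript, here CPM per kilobase of the longest protein-coding transcript. On that scale the inducible genes were the minor form in Sham, at 3.96 for Psmb8, 4.53 for Psmb9 and 12.6 for Psmb10, against 164 for Psmb5, 164 for Psmb6 and 61.0 for Psmb7. The ratio of Psmb10 to Psmb7 was 0.158, 0.242 and 0.234 in Sham, 0.348 and 0.253 in bIRI, and 1.05, 0.940 and 1.20 in BHBNa_bIRI. The ratio was highest in BHBNa_bIRI, and the 3 groups did not overlap. The mean was 0.211 ± 0.046 in Sham and 1.06 ± 0.13 in BHBNa_bIRI (SD, n = 3 each), a difference of 2.35 on the log2 scale. It was 1.83 against bIRI, and with length and GC offsets, from the fitted fold changes of both genes, 2.15 and 1.57.

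The ratio of Psmb8 to Psmb5 was 0.0238, 0.0262 and 0.0227 in Sham, 0.0155 and 0.0193 in bIRI, and 0.0313, 0.0264 and 0.0204 in BHBNa_bIRI. It was lowest in bIRI, and BHBNa_bIRI overlapped with Sham, with a mean log2 difference of 0.08 that became -0.0607 without BHBNa_bIRI replicate 1. For Psmb9 to Psmb6 the ratio was 0.0300, 0.0293 and 0.0247 in Sham, 0.0129 and 0.0187 in bIRI, and 0.0156, 0.0136 and 0.00914 in BHBNa_bIRI. Every Sham library was above every library of the injured groups, which overlapped, and the mean log2 ratio was lower by -0.85 in bIRI and by -1.16 in BHBNa_bIRI than in Sham. With the offsets these values depended on the correction: Psmb8 to Psmb5 differed by 0.48 from Sham and by 0.97 from bIRI (0.57 without offsets), and Psmb9 to Psmb6 by -0.81 from Sham and by 0.0377 from bIRI (-0.32 without). Groups of 2 or 3 libraries cannot reach a p of 0.05 in an exact permutation test, so the ratios are given without one. Their level depends on the length used: with the union of all exons the mean log2 ratios in Sham moved from -5.37 to -6.42 for Psmb8 to Psmb5, from -5.16 to -5.37 for Psmb9 to Psmb6, and from -2.27 to -1.09 for Psmb10 to Psmb7, while the differences between groups stay the same by construction. With exon unions, the Psmb10 to Psmb7 ratio in BHBNa_bIRI was 2.13 to 2.72.

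**Figure D4:**
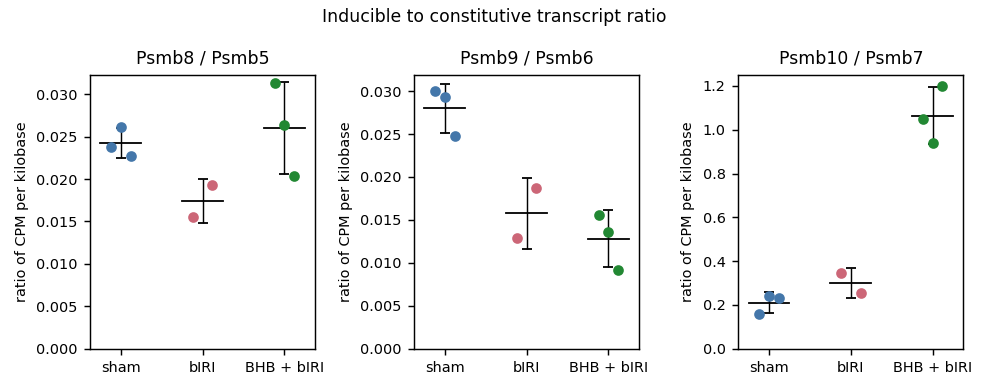
Ratio of each inducible catalytic gene to its constitutive counterpart (y axes, CPM per kilobase over CPM per kilobase, each from 0) in every library, by group, with bars for the mean ± SD (n = 3, 2 and 3) and BHB + bIRI for BHBNa_bIRI. The ratio of Psmb10 to Psmb7 is 0.940 to 1.20 in BHBNa_bIRI and at most 0.348 elsewhere, whereas Psmb8 to Psmb5 is 0.0155 to 0.0313 in the 8 libraries and Psmb9 to Psmb6 is highest in Sham.

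Genes of antigen presentation and interferon response act with the immunoproteasome. Of 18 such genes tested, 2 rose and 1 fell in bIRI against Sham, 1 rose and 1 fell in BHBNa_bIRI against bIRI, and 3 rose and 1 fell in BHBNa_bIRI against Sham. These are 16.7%, 11.1% and 22.2% of the list, beside 35.1%, 13.5% and 43.6% of all genes. Irf1, an interferon-induced transcription factor that drives the inducible subunit genes, was at 17.8, 19.5 and 14.0 CPM in Sham, 18.0 and 17.2 CPM in bIRI, and 35.6, 29.9 and 33.1 CPM in BHBNa_bIRI. It rose by 0.90 on the log2 scale against bIRI (SE 0.19, edgeR adjusted p = 0.0293) and by 0.94 against Sham (SE 0.17, adjusted p = 0.00203). The first of these calls was lost without bIRI replicate 3 (adjusted p = 0.0520) and without the 4 libraries that ended all calls of that comparison. Tap1 and Tap2 flank Psmb8 in the same cluster of chromosome 17. Tap1 was at 16.9, 13.4 and 14.8 CPM in Sham, 12.1 and 7.85 CPM in bIRI, and 18.0, 17.8 and 11.8 CPM in BHBNa_bIRI, with log2 fold changes of -0.59, 0.67 and 0.08 and no call. Tap2 rose by 0.63 in BHBNa_bIRI against Sham (SE 0.19, edgeR adjusted p = 0.0232) from 11.7 to 14.0 CPM to 17.4 to 21.8 CPM, a call lost without Sham replicate 1 (adjusted p = 0.0672) or 2 (0.107) or BHBNa_bIRI replicate 1 (0.0833) or 3 (0.0695). Cxcl9, a chemokine gene induced by interferon gamma, was at 1.39 to 1.69 CPM in Sham and at 0 to 0.388 CPM in the injured groups, and fell in bIRI by 4.49 (SE 1.10, adjusted p = 0.0121). Erap1, a peptide-trimming enzyme, rose by 0.65 in bIRI (SE 0.22, adjusted p = 0.0405) and fell by 0.76 in BHBNa_bIRI against bIRI (SE 0.22, adjusted p = 0.0470). The rise of Erap1 was lost without any 1 Sham library, bIRI replicate 3, or BHBNa_bIRI replicate 1 or 2 (adjusted p = 0.0510 to 0.166), and its fall without any 1 library but bIRI replicate 1 (0.0564 to 0.156). Ifngr2, a chain of the interferon gamma receptor, rose by 0.73 in bIRI (SE 0.22, adjusted p = 0.0293), though not without any 1 Sham library (0.0608 to 0.0916) or bIRI replicate 1 (0.325), and Irf9, part of the factor that carries type I interferon signals, rose by 0.84 in BHBNa_bIRI against Sham (SE 0.18, adjusted p = 0.00431). Ifng, the gene of interferon gamma, had reads only in Sham replicate 1, at 0.0497 CPM.

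Markers of immune cells moved with the inducible subunits in part. Summed over 4 general leukocyte markers, levels were 35.6 to 52.0 CPM in Sham, 22.2 to 44.7 CPM in bIRI and 67.4 to 77.1 CPM in BHBNa_bIRI. The 5 neutrophil markers summed to 0.845 to 1.65, 4.82 to 11.3 and 37.2 to 63.8 CPM, with Ly6g at 0 in all Sham and bIRI libraries. The 9 macrophage and dendritic cell markers went from 446 to 698 CPM in Sham to 124 to 171 CPM in bIRI and 254 to 261 CPM in BHBNa_bIRI. The 5 T and NK cell markers summed to 2.12 to 3.03, 0.197 to 0.414 and 0.490 to 0.788 CPM, and the 5 B and plasma cell markers to 5.02 to 32.2, 2.18 to 2.39 and 4.37 to 5.24 CPM, with Ms4a1 at 0 in both bIRI libraries. The part of these cells in the levels of Psmb8, Psmb9 and Psmb10 was not tested. In whole tissue, fewer cells of a type and less RNA per cell cannot be told apart.

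The alpha ring and the beta subunits without a cutting site made up the rest of the core. No alpha gene passed the test in bIRI against Sham or in BHBNa_bIRI against bIRI, where edgeR's log2 fold changes ran in the latter from -0.29 for Psma4 to 0.83 for Psma7. At an unadjusted p under 0.05 there were 0 and 3 alpha genes. DESeq2 called 0 and 1, beside 24.1% and 14.5% of the 29045 genes in its unfiltered fit. Psma7, an alpha subunit of the ring that gates the barrel (ENSMUSG00000027566, chromosome 2, 180036374 to 180042433), was at 112, 114 and 139 CPM in Sham, 178 and 83.4 CPM in bIRI, and 282, 198 and 219 CPM in BHBNa_bIRI. BHBNa_bIRI was the highest group in each of its libraries. Against Sham, Psma7 rose by 0.94 (SE 0.28, edgeR adjusted p = 0.0211) and Psma2 by 0.77 (SE 0.26, adjusted p = 0.0362). The call of Psma7 was lost without Sham replicate 1 (0.0810) or 2 (0.0809) or BHBNa_bIRI replicate 1 (0.0813), and that of Psma2 without any 1 Sham or BHBNa_bIRI library (0.0600 to 0.126). Psma4 was at 139 to 144 CPM in Sham and 104 to 136 CPM in BHBNa_bIRI, with a log2 fold change of -0.19 and no call. With length and GC offsets Psma4 was called lower there, at -0.39 (edgeR adjusted p = 0.0367). Psma8, the alpha paralog of the testis, held 2, 0 and 4 counts in Sham, 9 and 10 in bIRI and 9, 22 and 13 in BHBNa_bIRI, at most 0.474 CPM, and its call against Sham (edgeR adjusted p = 0.0313) was lost without Sham replicate 1 or 2 or BHBNa_bIRI replicate 2 or 3 (0.0656 to 0.0927).

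The 4 beta genes without a cutting site were Psmb1, Psmb2, Psmb3 and Psmb4. All had BHBNa_bIRI libraries above all bIRI libraries, beside 22.2% of all genes, and none passed the test against bIRI. Their log2 fold changes there were 0.75, 0.65, 1.42 and 1.11, with edgeR adjusted p of 0.125, 0.0813, 0.0575 and 0.1. All 4 had an unadjusted p under 0.05, and DESeq2 called 3 higher, beside 6.36% of the 29045 genes in its unfiltered fit. Psmb3 (ENSMUSG00000069744, chromosome 11, 97703399 to 97713500) was at 102, 113 and 146 CPM in Sham, 164 and 51.8 CPM in bIRI, and 327, 212 and 327 CPM in BHBNa_bIRI. Its bIRI replicate 3 value was the lowest of the 8 and its bIRI replicate 1 value exceeded all of Sham. Against Sham, Psmb3 rose by 1.26 (SE 0.38, adjusted p = 0.0228) and Psmb2 by 0.77 (SE 0.20, adjusted p = 0.0126), calls lost for Psmb3 without Sham replicate 1 or 2 or BHBNa_bIRI replicate 1 or 3 (0.0703 to 0.0886) and for Psmb2 without Sham replicate 1 (0.0609). Over the 14 constitutive core genes, Psma8 left out, 0, 2 and 6 were higher and 0, 0 and 1 lower in the 3 comparisons. In either direction these are 0%, 14.3% and 50% of the core genes, beside 35.1%, 13.5% and 43.6% of all genes. The last 2 shares, with both directions together, are near those of all genes. By direction, 4.88% of all genes were higher and 8.65% lower in BHBNa_bIRI against bIRI, and 21.3% and 22.2% in BHBNa_bIRI against Sham.

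Of the 17 subunit genes of the 19S cap, 1 rose and none fell in bIRI against Sham, none rose and 1 fell in BHBNa_bIRI against bIRI, and 3 rose and 1 fell in BHBNa_bIRI against Sham. These are 5.88%, 5.88% and 23.5% of the cap genes, beside 35.1%, 13.5% and 43.6% of all genes. The median log2 fold change against bIRI was 0.29 for the cap and 0.71 for the constitutive core, a difference that was not tested. Psmc6, an ATPase of the ring that unfolds substrates (ENSMUSG00000021832, chromosome 14, 45329788 to 45349705), was at 57.4, 62.8 and 68.0 CPM in Sham, 102 and 90.5 CPM in bIRI, and 73.1, 77.1 and 63.8 CPM in BHBNa_bIRI. Both bIRI libraries were above all others, and the other groups overlapped. It rose in bIRI by 0.61 on the log2 scale (SE 0.16, edgeR adjusted p = 0.0178), and the call was lost without Sham replicate 1 (adjusted p = 0.0717), Sham replicate 2 (0.0756) or bIRI replicate 1 (0.0516). With offsets for transcript length and GC content its log2 fold change was 0.10 (adjusted p = 0.547).

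Psmd1, the scaffold subunit of the cap's base (ENSMUSG00000026229, chromosome 1, 86064387 to 86139151), was the only subunit gene called lower in BHBNa_bIRI against bIRI. It was at 102, 96.4 and 70.9 CPM in Sham, 90.9 and 106 CPM in bIRI, and 49.1, 51.1 and 46.2 CPM in BHBNa_bIRI. The 3 BHBNa_bIRI libraries lay close together and below all 5 others. Psmd1 fell by 1.01 against bIRI (SE 0.19, edgeR adjusted p = 0.0275) and by 0.88 against Sham (SE 0.17, adjusted p = 0.00328). Psmd4, the ubiquitin receptor Rpn10 (ENSMUSG00000005625, chromosome 3, 95032694 to 95042614), showed the opposite order at 112, 114 and 137 CPM in Sham, 183 and 92.0 CPM in bIRI, and 277, 227 and 319 CPM in BHBNa_bIRI. It rose by 1.18 against Sham (SE 0.26, adjusted p = 0.00575), and against bIRI its log2 fold change was 1.00 (SE 0.30, adjusted p = 0.0523). Psmd2, the other scaffold of the base, was at 204 to 233 CPM in Sham, 252 and 148 CPM in bIRI and 228 to 254 CPM in BHBNa_bIRI, with no call.

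Among the ATPases, against Sham Psmc4 rose by 0.82 (SE 0.22, edgeR adjusted p = 0.0128) and Psmc5 by 0.90 (SE 0.24, adjusted p = 0.0136), with both calls lost without Sham replicate 1 (0.0596 and 0.0598) or 2 (0.0585 and 0.0592), and that of Psmc5 also without BHBNa_bIRI replicate 1 (0.0511). In the edgeR fit of the 8 libraries without length and GC offsets, Psmc1, Psmc2 and Psmc3 were not called in any comparison. DESeq2 called 3 of the 6 ATPase genes higher in BHBNa_bIRI against bIRI, beside 6.36% of the 29045 genes in its unfiltered fit. The edgeR fit without the offsets called none there. With the offsets, Psmc1 was higher in bIRI against Sham by 0.59 (edgeR adjusted p = 0.0101). Psmc2 was then higher in BHBNa_bIRI against Sham by 0.53 (adjusted p = 0.00748). The edgeR fit of the 8 libraries without these offsets called none of the 8 lid genes, which include the deubiquitinase Psmd14, in the 3 comparisons. Of the 8, 2, 0 and 0 had an unadjusted p under 0.05. In bIRI against Sham, DESeq2 called 11.3% of the 29045 genes in its unfiltered fit lower, and 1 of the 8 lid genes. Their log2 fold changes lay between -0.48 for Psmd3 and 0.41 for Psmd11 in bIRI against Sham, and between -0.31 for Psmd3 and 0.40 for Psmd12 in BHBNa_bIRI against Sham. Psmd14 was at 51.1 to 60.7 CPM in Sham, 77.5 and 53.6 CPM in bIRI, and 52.3 to 79.3 CPM in BHBNa_bIRI, so that its groups overlapped. With the offsets, edgeR called the lid genes Psmd7, Psmd11 and Psmd12 higher in bIRI against Sham. In BHBNa_bIRI against Sham it then called Psmd11 and Psmd12 higher and Psmd3 lower.

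In BHBNa_bIRI against bIRI, edgeR called 3 of the 4 core chaperone genes and none of the 3 cap chaperone genes, beside 13.5% of all genes. Their median log2 fold changes were 1.23 and 0.17, and their median transcripts 963.5 and 2597 bases long. With length and GC offsets none was called, and the medians were 0.51 and 0.28. The difference between the 2 kinds was not tested. The core chaperones are the pair of Psmg1 and Psmg2 and the pair of Psmg3 and Psmg4, which guide the alpha ring together. Psmg3 (ENSMUSG00000029551, chromosome 5, 139823592 to 139826885) was at 4.57, 4.54 and 6.18 CPM in Sham, 7.29 and 2.42 CPM in bIRI, and 16.5, 12.5 and 16.6 CPM in BHBNa_bIRI. Psmg4 (ENSMUSG00000071451, chromosome 13, 34162964 to 34178173) was at 7.45, 7.15 and 11.2 CPM in Sham, 13.4 and 6.24 CPM in bIRI, and 32.7, 24.4 and 34.0 CPM in BHBNa_bIRI. For both genes every BHBNa_bIRI library was above every other library and the bIRI libraries spanned the Sham range. Against bIRI, Psmg3 rose by 1.65 (SE 0.42, edgeR adjusted p = 0.0373) and Psmg4 by 1.63 (SE 0.35, adjusted p = 0.0299), and against Sham Psmg3 rose by 1.58 (SE 0.36, adjusted p = 0.00715) and Psmg4 by 1.82 (SE 0.31, adjusted p = 0.00146). Against bIRI, without bIRI replicate 3 or 1, Psmg3 was at 1.06 (adjusted p = 0.0538) or 2.70, and Psmg4 at 1.17 or 2.34.

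Psmg1 (ENSMUSG00000022913, chromosome 16, 95979933 to 95990960) was at 33.5, 35.3 and 38.5 CPM in Sham, 31.6 and 18.2 CPM in bIRI, and 47.7, 40.1 and 44.5 CPM in BHBNa_bIRI. Here bIRI was the lowest group and BHBNa_bIRI the highest. It rose by 0.83 against bIRI (SE 0.23, edgeR adjusted p = 0.0467) and not past the threshold against Sham (0.30, adjusted p = 0.253). The value of Psmg1 against bIRI was 0.48 without bIRI replicate 3 and 1.33 without bIRI replicate 1. Psmg2 was not called in any comparison by the edgeR fit of the 8 libraries. Pomp, the maturation factor of the core that is no member by its name, rose by 0.94 against bIRI (SE 0.26, edgeR adjusted p = 0.0442) and by 1.09 against Sham (SE 0.23, adjusted p = 0.00442). Its values were 90.1, 91.9 and 121 CPM in Sham, 141 and 84.1 CPM in bIRI, and 223, 185 and 238 CPM in BHBNa_bIRI. The call of Pomp against bIRI was lost without any 1 Sham or BHBNa_bIRI library (edgeR adjusted p = 0.0607 to 0.137). Without bIRI replicate 3 its log2 fold change there was 0.61. Of the 3 cap chaperones, Psmd5, Psmd9 and Psmd10, the edgeR fit of the 8 libraries called none in any comparison. It had 1, 0 and 1 of them at an unadjusted p under 0.05, and DESeq2 called none. Psmd10, the oncoprotein gankyrin, was at 21.4 to 24.1 CPM in Sham and 31.9 to 36.9 CPM in BHBNa_bIRI, with a log2 fold change of 0.56 (SE 0.22, edgeR adjusted p = 0.0651).

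In BHBNa_bIRI against Sham, the activators split by type. Psme1 and Psme2 encode PA28 alpha and beta, interferon-inducible subunits of a ring that opens the barrel without ubiquitin or ATP. Psme1 (ENSMUSG00000022216, chromosome 14, 55578123 to 55581529) was at 60.6, 64.8 and 87.0 CPM in Sham, 76.7 and 61.0 CPM in bIRI, and 144, 103 and 122 CPM in BHBNa_bIRI. Psme2 (ENSMUSG00000079197, chromosome 14, 55587441 to 55591113) was at 34.7, 38.8 and 48.01 CPM in Sham, 56.5 and 35.2 CPM in bIRI, and 120, 90.9 and 124 CPM in BHBNa_bIRI. Both genes had their 3 highest libraries in BHBNa_bIRI, with Sham and bIRI overlapping. Psme1 rose by 0.84 against bIRI (SE 0.23, edgeR adjusted p = 0.0425) and by 0.80 against Sham (SE 0.20, adjusted p = 0.0107). Psme2 rose by 1.28 against bIRI (SE 0.26, adjusted p = 0.0284) and by 1.46 against Sham (SE 0.22, adjusted p = 0.000890). With length and GC offsets, the values against bIRI were 0.09 for Psme1 (edgeR adjusted p = 0.760) and 0.55 for Psme2 (adjusted p = 0.0578). Psme2b, a copy of Psme2 that is 99.4% identical over 794 aligned bases, rose against Sham by 1.05 (SE 0.28, adjusted p = 0.0146). Reads of Psme2 and Psme2b may be split between them, so that each is uncertain. The calls against Sham were lost for Psme1 without Sham replicate 1 (0.0535) or 2 (0.0548), and for Psme2b without Sham replicate 1 (0.0626) or BHBNa_bIRI replicate 1 (0.0557).

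Psme4, the gene of the activator PA200 (ENSMUSG00000040850, chromosome 11, 30771726 to 30880361), fell in all 3 comparisons. Its values were 139, 129 and 127 CPM in Sham, 84.9 and 95.03 CPM in bIRI, and 60.6, 55.4 and 46.4 CPM in BHBNa_bIRI. The 3 groups formed separate steps without overlap. Psme4 fell by 0.55 on the log2 scale in bIRI against Sham (SE 0.18, edgeR adjusted p = 0.0355), by 0.73 in BHBNa_bIRI against bIRI (SE 0.17, adjusted p = 0.0327) and by 1.28 in BHBNa_bIRI against Sham (SE 0.16, adjusted p = 0.000268). The first call was lost without any 1 Sham library (adjusted p = 0.0689 to 0.104) and without BHBNa_bIRI replicate 1 (0.0518) or 2 (0.0573), and the second without any 1 library but bIRI replicate 1 (0.0518 to 0.117). With length and GC offsets the 3 values were -0.95 (adjusted p = 0.00139), -0.09 (0.728) and -1.04 (0.000292), and Psme4 has the longest transcript of the members, 6491 bases. Psme3, the nuclear activator PA28 gamma, was at 96.4 to 107 CPM in Sham, and Psmf1, the inhibitor PI31, at 43.1 to 46.0 CPM. Neither was called in any comparison by the edgeR fit of the 8 libraries without the offsets. With the offsets, Psme3 was higher in BHBNa_bIRI against Sham by 0.48 (edgeR adjusted p = 0.0272).

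Of 10 genes of the NRF1 pathway, 2 rose in bIRI against Sham, 1 fell in BHBNa_bIRI against bIRI, and 1 rose and 4 fell in BHBNa_bIRI against Sham. The shares called, 20%, 10% and 50%, stood beside 35.1%, 13.5% and 43.6% of all genes. Nfe2l1 was at 220, 204 and 169 CPM in Sham, 174 and 248 CPM in bIRI, and 147, 139 and 153 CPM in BHBNa_bIRI, with no call. Nfe2l2, the gene of NRF2, which answers oxidative stress, was at 97.4, 92.0 and 82.4 CPM in Sham, 186 and 162 CPM in bIRI, and 80.8, 109 and 79.96 CPM in BHBNa_bIRI. Only its bIRI libraries stood apart from the rest. Nfe2l2 rose by 0.94 in bIRI (SE 0.19, edgeR adjusted p = 0.00514) and fell by 0.96 in BHBNa_bIRI against bIRI (SE 0.19, adjusted p = 0.0284). The call of that fall was lost without Sham replicate 1 (0.0548) or 2 (0.0608) or BHBNa_bIRI replicate 1 (0.105) or 3 (0.115). Maff, a small MAF partner of both factors, rose by 2.01 in bIRI (SE 0.36, adjusted p = 0.00269) and by 2.09 in BHBNa_bIRI against Sham (SE 0.33, adjusted p = 0.00110). Against Sham, Ngly1, which removes sugars from NRF1, fell by 0.61 (SE 0.15, adjusted p = 0.0113) and Vcp, the segregase that extracts it from the endoplasmic reticulum, fell by 0.56 (SE 0.17, adjusted p = 0.0248), a call lost without Sham replicate 1 or 2 or any 1 BHBNa_bIRI library (0.0640 to 0.0940).

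Among 16 proteasome partners that are not members by name, 1 rose and 2 fell in bIRI against Sham, 1 rose and 3 fell in BHBNa_bIRI against bIRI, and 4 rose and 5 fell in BHBNa_bIRI against Sham. That is 18.8%, 25% and 56.2% of them, beside 35.1%, 13.5% and 43.6% of all genes. Uchl5, a deubiquitinase of the cap, rose by 1.16 in bIRI (SE 0.17, edgeR adjusted p = 0.000974), from 11.3 to 12.5 CPM to 25.7 and 27.3 CPM, and fell by 0.63 in BHBNa_bIRI against bIRI (SE 0.17, adjusted p = 0.0406). The fall of Uchl5 was lost without any 1 Sham or BHBNa_bIRI library (0.0615 to 0.128), and its log2 fold change was -0.59 without bIRI replicate 3. Sem1, the smallest cap subunit, rose by 1.33 in BHBNa_bIRI against Sham (SE 0.19, adjusted p = 0.000631). Ubqln2, a shuttle factor that carries ubiquitin-tagged proteins to the cap, fell by 0.94 against bIRI (SE 0.27, adjusted p = 0.0470). That call was lost without any 1 Sham library or BHBNa_bIRI replicate 1 or 3 (0.0685 to 0.148). Without bIRI replicate 1 the log2 fold change of Ubqln2 was -0.57. Ube3c, a ubiquitin ligase bound to the proteasome, fell by 0.59 in bIRI (SE 0.18, adjusted p = 0.0289). The fall of Ube3c was lost without Sham replicate 1 or 2, bIRI replicate 3 or BHBNa_bIRI replicate 1 (0.0510 to 0.102).

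Of 6 ubiquitin and E1 enzyme genes, 1 rose and 1 fell in bIRI against Sham, 1 rose in BHBNa_bIRI against bIRI, and 2 rose and 1 fell in BHBNa_bIRI against Sham, shares of 33.3%, 16.7% and 50% near the 35.1%, 13.5% and 43.6% of all genes. Rps27a, which encodes ubiquitin fused to a ribosomal protein, was at 140, 217 and 247 CPM in Sham, 142 and 53.8 CPM in bIRI, and 721, 362 and 599 CPM in BHBNa_bIRI. It rose by 2.52 against bIRI (SE 0.48, edgeR adjusted p = 0.0275) and by 1.48 against Sham (SE 0.39, adjusted p = 0.0137). The call of Rps27a against bIRI was lost without Sham replicate 1 (0.0540) or 2 (0.0604) or BHBNa_bIRI replicate 1 (0.105) or 3 (0.115). Its call against Sham was lost without Sham replicate 1 (0.0623) or BHBNa_bIRI replicate 1 (0.0531). Uba6, an E1 enzyme that starts the transfer of ubiquitin, rose by 1.10 in bIRI (SE 0.25, adjusted p = 0.00901). Against Sham, Uba1, another E1 enzyme, fell by 0.50 in BHBNa_bIRI (SE 0.16, edgeR adjusted p = 0.0301), a call lost without any 1 Sham or BHBNa_bIRI library (0.0537 to 0.120).

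The fold changes of the members in BHBNa_bIRI against bIRI ran with transcript length, shorter transcripts having the higher values. Across the 49 members, whose median transcript is 1440 bases long against 2760.5 for all genes tested, Spearman's rho between length and log2 fold change was -0.60. Over 12940 genes of the series it was -0.52 with length and 0.44 with GC content. Genes are not independent replicates, and no p is given. When a trend in length and GC content was fitted in each library and used as an offset, rho over the members was -0.13 and their median log2 fold change 0.29. In that fit edgeR called 0 members in BHBNa_bIRI against bIRI, with 15 higher and 4 lower at an unadjusted p under 0.05. The share of all genes called was then 0% higher and 0.0111% lower. Psmb8 kept a log2 fold change of 1.20 and Psmb10 of 0.95, and Psmd1 had -0.80, each with an adjusted p of 0.0516, while Psmb9 had 0.49 (adjusted p = 0.261), Psmb5 0.23 (0.363) and Psmb6 0.46 (0.116).

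Against Sham, the offsets left 22 members higher and 5 lower in BHBNa_bIRI, beside 23.8% and 22.2% of all genes. Psmb10 was then higher by 1.52 (edgeR adjusted p = 8.56e-05), Psmb8 by 1.10 (adjusted p = 0.00217), Psme2 by 1.09 (adjusted p = 0.000145) and Psmg4 by 1.07 (adjusted p = 0.000763). In bIRI against Sham the offsets gave 7 members higher and 1 lower, beside 20.3% and 16.4% of all genes, and a median of 0.19. The 7 were Psmb2, Psmb10, Psmc1, Psmd7, Psmd11, Psmd12 and Psme2, and the 1 lower was Psme4. The fall of Psmb9 was -0.64 with the offsets (edgeR adjusted p = 0.0834). Whether the trend with length comes from the libraries or from the tissue was not tested.

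**Figure D5:**
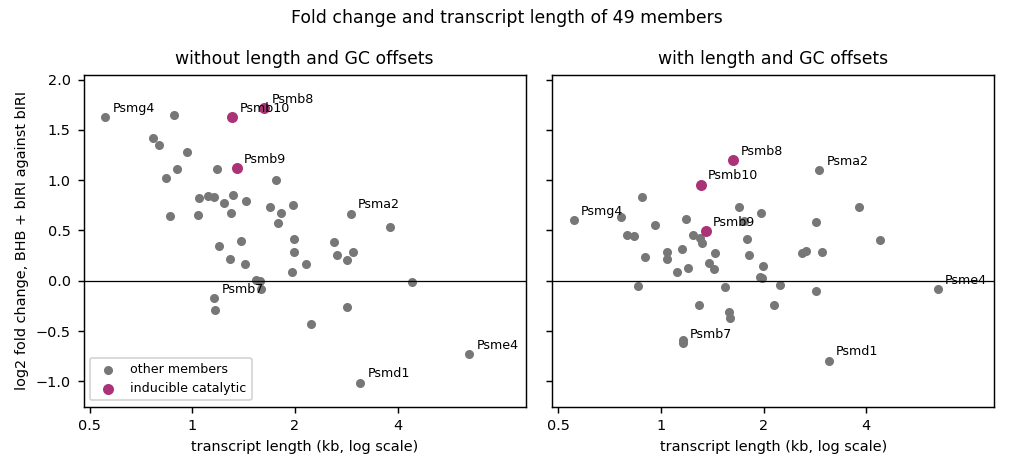
Log2 fold change in BHBNa_bIRI against bIRI (y axis) against transcript length in kilobases (x axis, log scale) for the 49 members tested, without (left) and with (right) offsets for length and GC content, with BHB + bIRI for BHBNa_bIRI. Each point is a gene and the inducible catalytic genes are in purple. Spearman's rho is -0.60 on the left and -0.13 on the right, where Psmb8 (1.20) and Psmb10 (0.95) remain among the highest.

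Some members share reads with other genes in ways the deposited counts cannot resolve. In all, 10 members have a near copy in the annotation, at 95% identity or more over at least 300 bases: Psma3, Psma4, Psma5, Psmb3, Psmb5, Psmc1, Psmd2, Psmd11, Psme2 and Psme2b. The copy of Psma3, Gm13835, is identical over 665 aligned bases and was at 31.6 to 77.8 CPM, beside 55.2 to 89.8 CPM for Psma3, so that the level of Psma3 is uncertain. Psmd1 shares 252 exonic bases with Htr2b on the opposite strand, which was at 0.872 CPM or less.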

How the data were processed

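Tables of 9 poly(A)-selected kidney RNA libraries were read, and 8 were used. The deposited values are raw read counts per gene, 1 table per library. The tools HISAT2, featureCounts, Subread and DESeq2 and the build mm10 were named by the authors, per the submitters' processing notes. Versions, annotation and strand setting are not given in the sources used here. bIRI replicate 2 equalled the rounded-down mean of bIRI replicates 1 and 3 in 29678 of 29678 genes (at most 2.16% of genes in other sets of 3) and was left out. GENCODE M21 named 29220 gene identifiers and left 458 unnamed.

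Genes were filtered with filterByExpr, scaled by TMM (factors 0.830 to 1.37) and fitted with edgeR 4.0.16 in R 4.3.3, quasi-likelihood with robust dispersion, over 8 libraries and 17967 genes (5 residual degrees of freedom, biological coefficient of variation 0.296). Tests were two-sided, adjusted by Benjamini and Hochberg over all genes in each comparison. The procedure was tested on simulated data. Offsets for length and GC content were natural splines with 5 degrees of freedom. DESeq2 1.42.0 was an alternative, run without the filter over 29045 genes. Levels per kilobase use the longest protein-coding transcript.

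The members, role groups, gene lists and markers were chosen with earlier results of these data known. Named were the 6 catalytic genes, Psme1, Psme2, members called in bIRI against Sham or BHBNa_bIRI against bIRI, up to 3 called genes of each other list per comparison, and Tap1. Psma7, Psmb3, Psmd4, Psmd10, Tap2, Nfe2l1 and other members outside this rule were picked once their values were known. The 3 listed symbols Shfm1, Paaf1 and AI314180 had no row under those names and were not analysed under them. Values of some genes of the other lists are not reported here.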

Additional observations from a re-analysis of the deposited data

How the results depend on the processing

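Counts of members called are given as higher and lower. In bIRI against Sham they were 1 and 2, and became 2 and 1 with upper-quartile factors, 0 and 1 without a filter, 2 and 2 with a filter at 1 CPM in 3 libraries, 1 and 0 in a fit of the compared groups only, 7 and 1 with length and GC offsets, and 2 and 5 with all 9 tables. Leaving out 1 library gave 0 to 7 higher and 0 to 27 lower. The members' median, -0.04, turned to 0.039 with upper-quartile factors, 0.19 with the offsets, 0.06 without Sham replicate 3 and 0.33 without bIRI replicate 3. In BHBNa_bIRI against bIRI the counts of 10 and 2 became 0 and 0 in a fit of the compared groups only and with the offsets, 24 and 3 with all 9 tables and 19 and 2 with DESeq2, and 0 to 35 and 0 to 2 with 1 library left out. In BHBNa_bIRI against Sham the counts of 17 and 3 became 27 and 3 in a fit of the compared groups only, 22 and 5 with the offsets, and 8 to 26 and 2 to 4 with 1 library left out. With DESeq2 and RLE factors the counts in this comparison were 17 and 3. In the 3 comparisons, a fit of the compared groups only called 26.1%, 0.00574% and 59.9% of all genes. The shares were 36.6%, 0.0111% and 46% with the offsets, and 47.9%, 33.2% and 50.2% with all 9 tables. With 1 Sham or BHBNa_bIRI library left out they were 23.4% to 32.6%, 0% to 6.49% and 30.2% to 36.3%. Fits that pool the spread assume that a lone library varies like the others. Without bIRI replicate 1, the bIRI against Sham log2 fold changes of Psma2 (-0.61), Psma7 (-0.61), Psmc5 (-0.54) and Psme2b (-0.78) reversed, and without bIRI replicate 3 they were 0.55, 0.55, 0.43 and 0.51. The difference in log2 ratio of Psmb8 to Psmb5 against Sham was -0.0607 to 0.25 with 1 library left out. With length and GC offsets, a setting added once the data had been seen, the differences in log2 ratio were 0.97 against bIRI and 0.48 against Sham for Psmb8 to Psmb5, 0.0377 (reversed) and -0.81 for Psmb9 to Psmb6, and 1.57 against bIRI for Psmb10 to Psmb7. Exon unions moved the log2 ratios in Sham to -6.42, -5.37 and -1.09 for Psmb8, Psmb9 and Psmb10. The causes of these changes were not tested.

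The labels name no pairing by replicate number. Deviations of same-numbered libraries from their group means correlated between -0.206 and 0.0925. With 2 bIRI libraries, whose deviations mirror each other, these correlations cannot decide whether such libraries are paired. With the replicate block, the counts were 0 and 1 in bIRI against Sham, 0 and 0 in BHBNa_bIRI against bIRI, where 0% of all genes were called and 26 members had an unadjusted p under 0.05, and 15 and 3 in BHBNa_bIRI against Sham. With the block and the length and GC offsets they were 4 and 1, 0 and 0, and 18 and 4, and the members' median in bIRI against Sham was 0.11.

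With 2 bIRI libraries that differ, differences from bIRI are poorly known, and Psmb11, at 0 to 4 counts, and Psma8, at 0 to 22, lie too low for a reliable fold change.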
